A study of Sus scrofa with 9 samples.

Results

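Annexins, galectins and S100 proteins were followed through 3 sorted fractions of blood T cells of sows. The 9 genes in question were ANXA1, ANXA2, ANXA4, ANXA5, LGALS1, LGALS3, S100A4, S100A10 and S100A11. All probes whose sequence accession belongs to these genes in the pig annotation Sscrofa11.1 were taken, which gave 21 probes for 5 of the 9 genes. These were 8 probes for ANXA1, 3 for ANXA2, 2 for LGALS1, 7 for LGALS3 and 1 for S100A11, among 3052 named genes and 43603 probes on the array. The other 4 genes (ANXA4, ANXA5, S100A4 and S100A10) were not analysed here. The S100 family is therefore represented by a single probe.

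The double positive fraction (DP) carried CD3, CD4 and CD8. The CD8 fraction was sorted as CD3+CD8+ and the CD4 fraction as CD3+CD4+. Each was sorted from Percoll-isolated mononuclear cells and hybridised to 3 Agilent arrays with a single dye after amplification of 25 ng of RNA. The series calls the arrays biological replicates, the sows carried no stated treatment, and the sources used here do not give the number or age of the animals or the purity of the sorts.

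Annexins bind membrane phospholipids when calcium is present and take part in membrane repair, vesicle traffic and the damping of inflammation. Galectins bind sugars on glycoproteins of the cell surface, and S100 proteins are small calcium sensors, several of which attach to annexins: S100A10 to ANXA2 and S100A11 to ANXA1. In human T cells, transcripts of several members of these families are known to be more abundant in memory and effector cells than in naive cells. The comparisons below ask whether the galectin, annexin and S100 genes were distributed alike over the 3 fractions.

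Levels are log2 signals relative to the 75th percentile of the array, so a level of 0 is that percentile. That percentile lay at signals of 19.0 to 42.5 in DP, 18.4 to 29.7 in the CD8 fraction and 15.2 to 84.1 in the CD4 fraction. The coreceptor genes followed the sort: CD4 averaged 2.14 in DP, -2.04 in the CD8 fraction and 1.92 in the CD4 fraction, and CD8A averaged 3.47, 5.35 and 0.27 in the same order. CD3E, a chain of the T cell receptor complex, lay between 5.26 and 5.49 on average in all 3 fractions. Tests were limited to probes that the scanner program marked as well above background throughout some fraction. That left 16024 probes in all and 14 of the 21 member probes. Calls are limma adjusted p-values under 0.05, adjusted over all 16024 probes. In these sorted bulk samples, fewer cells that carry a transcript and less of it per cell cannot be told apart.

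LGALS1 encodes galectin 1, a secreted galectin that can trigger the death of activated T cells. Its brighter probe stood at 2.15, 1.66 and 1.12 on DP arrays 1, 2 and 3, at 1.46, 0.31 and 0.38 on CD8 arrays 1, 2 and 3, and at -1.27, -1.38 and -1.13 on the CD4 arrays. All DP and all CD8 values lay above all CD4 values, while DP and the CD8 fraction overlapped through CD8 array 1. On CD4 array 2 the probe was not well above background. LGALS1 was 7.49-fold higher in DP than in the CD4 fraction (log2 2.90, SE 0.47, 95% interval 1.89 to 3.92, limma adjusted p = 0.0204). Of all tested probes, 0.225% were called higher in DP than in the CD4 fraction, and 0.293% in either direction. LGALS1 was the 1 member gene called in this comparison, and the F test over the 3 fractions also called it (limma adjusted p = 0.0273), against 0.612% of all tested probes.

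The second LGALS1 probe stood at 1.95, 1.82 and 0.58 on the DP arrays, at -0.12, 1.37 and 0.04 on the CD8 arrays and at -1.13, -3.11 and -1.21 on the CD4 arrays. The fractions were arranged as with the first probe, with CD4 array 2 again not above background and lowest. This probe differed by 3.27 between DP and the CD4 fraction (SE 0.65) and missed the threshold (limma adjusted p = 0.0625). Between the CD8 and CD4 fractions the brighter probe differed by 1.97 (SE 0.47, adjusted p = 0.146) and the second by 2.24 (SE 0.65, adjusted p = 0.362), with no overlap of arrays for either. Arrays of the CD8 fraction lay wholly above those of the CD4 fraction for 4.24% of all tested probes. Between DP and the CD8 fraction the brighter probe differed by 0.93, with an interval of -0.09 to 1.95 that leaves room for differences of either sign (adjusted p = 0.833).

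The call of LGALS1 in DP over the CD4 fraction rested on every array of both fractions but DP array 3. Leaving out DP array 1 or 2, or CD4 array 1, 2 or 3, gave differences of 2.65, 2.90, 2.90, 2.84 and 2.97 with limma adjusted p-values of 0.177, 0.0797, 0.0595, 0.0919 and 0.0898. Within slide 2 and slide 3, the slides that hold all 3 fractions, the difference was 3.04 and 2.32. DP array 1 was alone on its slide, so a fit with slide as a block drops it from the comparison and gave 2.61 (adjusted p = 0.194). With normexp background correction the difference was 1.19 (limma adjusted p = 0.214), and over all alternatives the adjusted p ran from 0.00724 to 0.214.

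**Figure D1:**
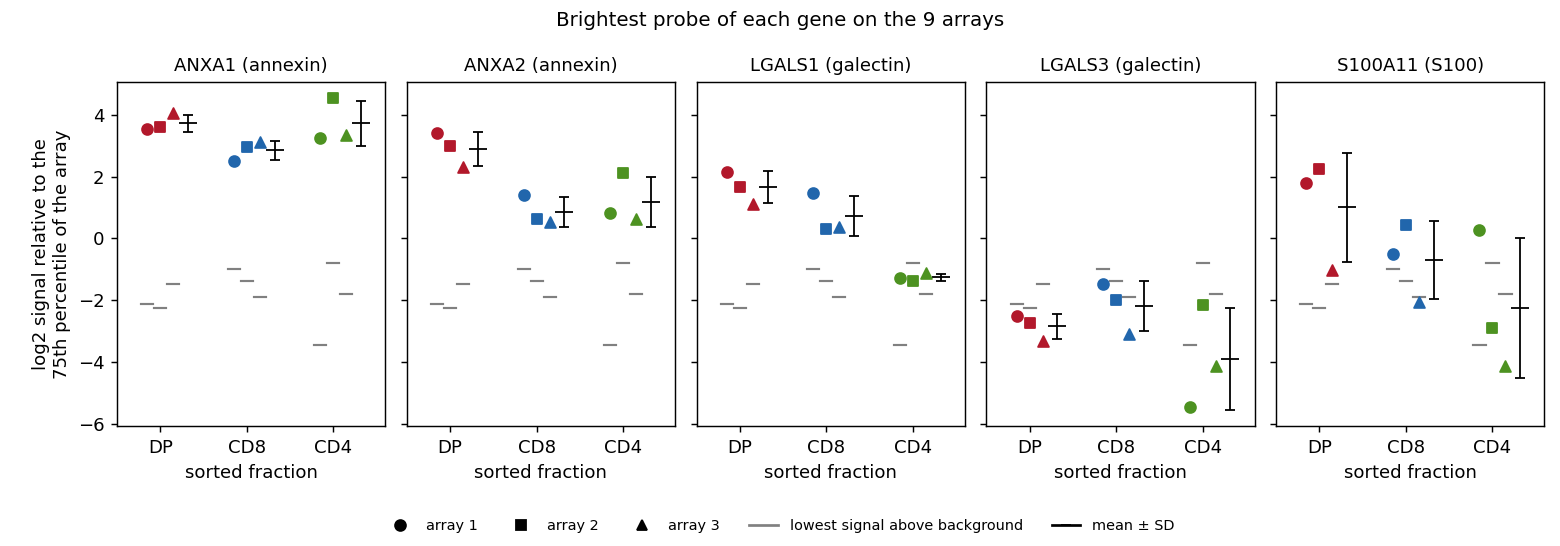
Log2 signal relative to the 75th percentile of the array (vertical axis) for the brightest probe of each member gene in the DP, CD8 and CD4 fractions. Symbols are single arrays, bars are mean ± SD of 3 arrays, and grey ticks mark the lowest signal well above background on each array. LGALS1 is low on all 3 CD4 arrays, ANXA2 is high on all 3 DP arrays, ANXA1 is lowest in the CD8 fraction, LGALS3 lies below the grey ticks throughout and S100A11 spreads widely in each fraction.

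LGALS3, the second galectin, encodes a galectin known from macrophages and other myeloid cells. Its signal was near background on all arrays. Of its 7 probes, 6 were not well above background on any of the 9 arrays, and the other was above background on CD8 array 3 alone. The brightest of the 7 read -2.49, -2.73 and -3.30 in DP, -1.48, -1.97 and -3.07 in the CD8 fraction and -5.43, -2.14 and -4.11 in the CD4 fraction, each below the lowest signal that counted as well above background on its array. None of the 7 probes was tested, and no fold is given. Apart from that 1 probe on that 1 array, LGALS3 was not detectable at this sensitivity, which does not show that it was absent.

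Markers of monocytes and granulocytes were read beside LGALS3. Of 16 listed genes 12 had a probe named by its accession. S100A8, S100A9 and CD163 stayed near background on all 9 arrays. Others were detected in part: CST3, FCER1G, FCGR3A, LYZ, S100A12, SIRPA and TYROBP were tested, and none was called. Leaving out FCGR3A, 2 to 8 of the other 11 genes were well above background on each array. FCGR3A, an Fc receptor gene that natural killer and some T cells also use, made up most of the summed level of the 12, which was 45.4 to 99.3 in DP, 33.8 to 63.8 in the CD8 fraction and 11.04 to 16.61 in the CD4 fraction (linear units of the 75th percentile). Without FCGR3A the sum of the other 11 was 2.28 to 12.9 in DP, 5.48 to 14.5 in the CD8 fraction and 4.59 to 6.80 in the CD4 fraction, with overlap between all 3. FCGR3A and LGALS1 were thus both lowest in the CD4 fraction, as was KLRK1, which encodes the activating receptor NKG2D, at 2.22 in DP, 3.39 in the CD8 fraction and -2.98 in the CD4 fraction. KLRK1 was called higher in DP than in the CD4 fraction (log2 5.21, limma adjusted p = 0.00589). Of 7 listed natural killer and gamma delta genes 3 had a named probe, with a summed level of 6.65 to 17.7 in DP, 11.6 to 30.9 in the CD8 fraction and 1.62 to 2.63 in the CD4 fraction. NCR1 stayed near background on all 9 arrays. The part of such cells in the LGALS1 difference was not tested.

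ANXA2 encodes annexin A2, which binds membranes and the actin cytoskeleton and is the partner of S100A10. Its brightest probe stood at 3.39, 2.99 and 2.31 on the DP arrays, at 1.40, 0.61 and 0.53 on the CD8 arrays and at 0.81, 2.10 and 0.62 on the CD4 arrays. All DP values lay above all values of both other fractions, which overlapped each other, with CD4 array 2 nearest to the DP arrays. The difference was 2.05 between DP and the CD8 fraction (SE 0.49, interval 0.98 to 3.12, limma adjusted p = 0.175) and 1.72 between DP and the CD4 fraction (SE 0.49, interval 0.65 to 2.78, adjusted p = 0.276). Neither passed over all probes.

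The second-brightest ANXA2 probe stood at 3.37, 3.11 and 2.54 on the DP arrays, at 0.02, 0.67 and 0.68 on the CD8 arrays and at 1.61, 1.95 and 0.58 on the CD4 arrays. DP again lay above both other fractions. This probe passed between DP and the CD8 fraction, where it was 5.85-fold higher (log2 2.55, SE 0.46, limma adjusted p = 0.0450), as the 1 member probe called there, against 0.131% of all tested probes called higher and 0.312% called in either direction. The call lay at the threshold. It was lost on leaving out DP array 1, 2 or 3 (adjusted p = 0.193, 0.159 and 0.0520), CD8 array 1, 2 or 3 (0.121, 0.141 and 0.103) or CD4 array 2 (0.0793), while the difference stayed between 2.33 and 2.78.

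The third ANXA2 probe stood at 1.11, 1.51 and 0.28 on the DP arrays, at -0.81, -1.28 and -1.31 on the CD8 arrays and at -0.88, -0.24 and -0.68 on the CD4 arrays. It differed by 2.10 between DP and the CD8 fraction (SE 0.48, adjusted p = 0.135) and by 1.57 between DP and the CD4 fraction (SE 0.48, adjusted p = 0.361). All 3 probes thus placed DP above both fractions with no overlap, an arrangement found for 4.59% of all tested probes against the CD8 fraction and for 5.22% against the CD4 fraction. The 3 probes read 1 transcript and are not independent. Between the CD8 and CD4 fractions their differences ran from -0.93 to -0.33, and none passed (limma adjusted p at least 0.999).

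ANXA1 encodes annexin A1, a mediator of glucocorticoid action that acts on formyl peptide receptors. Its brightest probe stood at 3.54, 3.58 and 4.04 on the DP arrays, at 2.51, 2.94 and 3.10 on the CD8 arrays and at 3.24, 4.55 and 3.34 on the CD4 arrays. The CD8 fraction was lowest, with its brightest array just under the dimmest CD4 array, while DP and the CD4 fraction overlapped. The difference between DP and the CD4 fraction was 0.01 (SE 0.42), with an interval of -0.89 to 0.91. DP exceeded the CD8 fraction by 0.87 (SE 0.42, limma adjusted p = 0.791), and the CD8 fraction differed from the CD4 fraction by -0.86 (SE 0.42, adjusted p = 0.999). None of these passed.

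All 8 ANXA1 probes were tested, and 6 of them were well above background on all 9 arrays. Between DP and the CD8 fraction all 8 differences were positive, from 0.63 to 1.85 with a median of 0.78. Between the CD8 and CD4 fractions all 8 were negative, from -2.48 to -0.38 with a median of -0.86, and 3 had no overlap of arrays, against 3.78% of all tested probes in that direction. Between DP and the CD4 fraction 5 were positive and 3 negative, from -0.63 to 0.52 with a median of 0.06. The probe with the lowest value, -3.05 on CD8 array 1, was also the one with the widest spread in the CD8 fraction (SD 2.47). No ANXA1 probe was called in any comparison, and the smallest limma adjusted p was 0.791. The unadjusted p was under 0.05 for 3 probes, all lower in the CD8 than in the CD4 fraction, in a comparison where 4.54% of all tested probes had such a p in either direction.

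B cell markers moved with the CD8 fraction, where ANXA1 was lowest. CD79A, which encodes a signalling subunit of the B cell receptor, averaged -0.05 in DP, 3.15 in the CD8 fraction and 0.17 in the CD4 fraction. Of 9 listed B cell genes 4 had a named probe, with a summed level of 0.48 to 2.94 in DP, 5.62 to 12.5 in the CD8 fraction and 1.11 to 2.37 in the CD4 fraction. BLNK stayed near background on all 9 arrays. Of 6 platelet genes 4 had a named probe and none was called, and none of 6 erythroid genes was analysed here. The part of B cell markers in the ANXA1 values was not tested.

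S100A11 encodes a calcium sensor that binds ANXA1 and serves in membrane repair. Its probe stood at 1.81, 2.23 and -1.02 on the DP arrays, at -0.51, 0.44 and -2.05 on the CD8 arrays and at 0.26, -2.88 and -4.11 on the CD4 arrays, the last of them at the floor of the array's signal. The averages ran in the same order as for LGALS1, 1.01 ± 1.76 in DP, -0.70 ± 1.26 in the CD8 fraction and -2.24 ± 2.25 in the CD4 fraction (SD, n = 3), but each fraction overlapped both others. The probe was tested because all 3 DP arrays were well above background, while CD8 array 3 and CD4 arrays 2 and 3 were not, so its differences rest in part on background signal. The fitted difference of 3.25 between DP and the CD4 fraction (interval 0.87 to 5.63) did not pass (limma adjusted p = 0.507). It was 0.95 with normexp background correction and ran from 2.32 without CD4 array 3 to 4.50 without CD4 array 1. Those of 1.71 between DP and the CD8 fraction and 1.54 between the CD8 and CD4 fractions did not pass either (adjusted p = 0.940 and 0.999).

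The spread of S100A11 within fractions went partly with the brightness of the array. On CD4 array 1, whose 75th percentile of 84.1 was the highest of the 9, it stood at 0.26, against -2.88 and -4.11 on CD4 arrays 2 and 3 with percentiles of 15.2 and 28.8. On DP array 3, with a percentile of 19.0, it stood at -1.02, against 1.81 and 2.23 on DP arrays 1 and 2 with percentiles of 39.7 and 42.5. In the CD8 fraction the brightest array, at 29.7, had the lowest value. Within DP, LGALS1 (1.12) and ANXA2 (2.31) were also lowest on DP array 3, while ANXA1 (4.04) was highest there. The part of brightness in the differences of these genes was not tested.

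**Figure D2:**
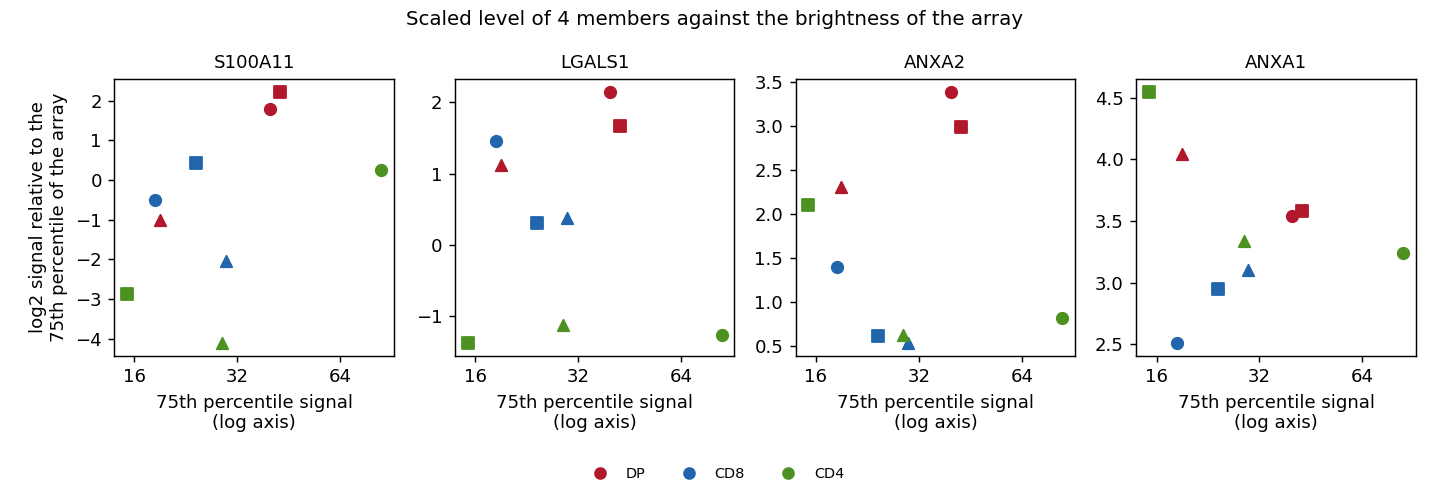
Scaled log2 level of the brightest probe of S100A11, LGALS1, ANXA2 and ANXA1 (vertical axis, 1 scale per panel) against the 75th percentile signal of each array (horizontal log axis). Points are the 9 arrays, coloured by fraction. Within DP and within the CD4 fraction the brightest arrays have higher S100A11 than the dimmest. LGALS1 and ANXA2 are likewise lowest within DP on its dimmest array. LGALS1 stays between -1.38 and -1.13 on CD4 arrays whose percentile runs from 15.2 to 84.1, but was not well above background on the dimmest of them. The second LGALS1 probe, not drawn, read -1.13, -3.11 and -1.21 on CD4 arrays 1, 2 and 3, lowest on the dimmest.

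Side by side, LGALS1 differed by 2.90, 0.93 and 1.97 for DP minus CD4, DP minus CD8 and CD8 minus CD4, and S100A11 by 3.25, 1.71 and 1.54. ANXA2 differed by 1.72, 2.05 and -0.33 in the same 3 comparisons, and ANXA1 by 0.01, 0.87 and -0.86. These comparisons share arrays, so their values are not independent of each other. Over the 14 tested probes the median difference was 0.44 for DP minus CD4, 0.98 for DP minus CD8 and -0.52 for CD8 minus CD4, where all tested probes had medians of -0.02, -0.03 and 0.01. ANXA1 supplies 8 of the 14, and the medians cover only the probes that passed the filter, so they describe these probes and no more. No member probe was called between the CD8 and CD4 fractions by limma, where 0.437% of all tested probes were called. An unadjusted p under 0.05 was found for 5 member probes in that comparison, 2 of LGALS1 higher and 3 of ANXA1 lower in the CD8 fraction. It was found for 6 member probes between DP and the CD4 fraction (3 of ANXA2, 2 of LGALS1 and 1 of S100A11), against 4.84% of all tested probes. Between DP and the CD8 fraction it was found for 3, all of ANXA2, against 6.52%. Probes of 1 gene are not independent, and S100A11 passed the filter only through DP, where it was highest. These counts are therefore no measure of the families.

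**Figure D3:**
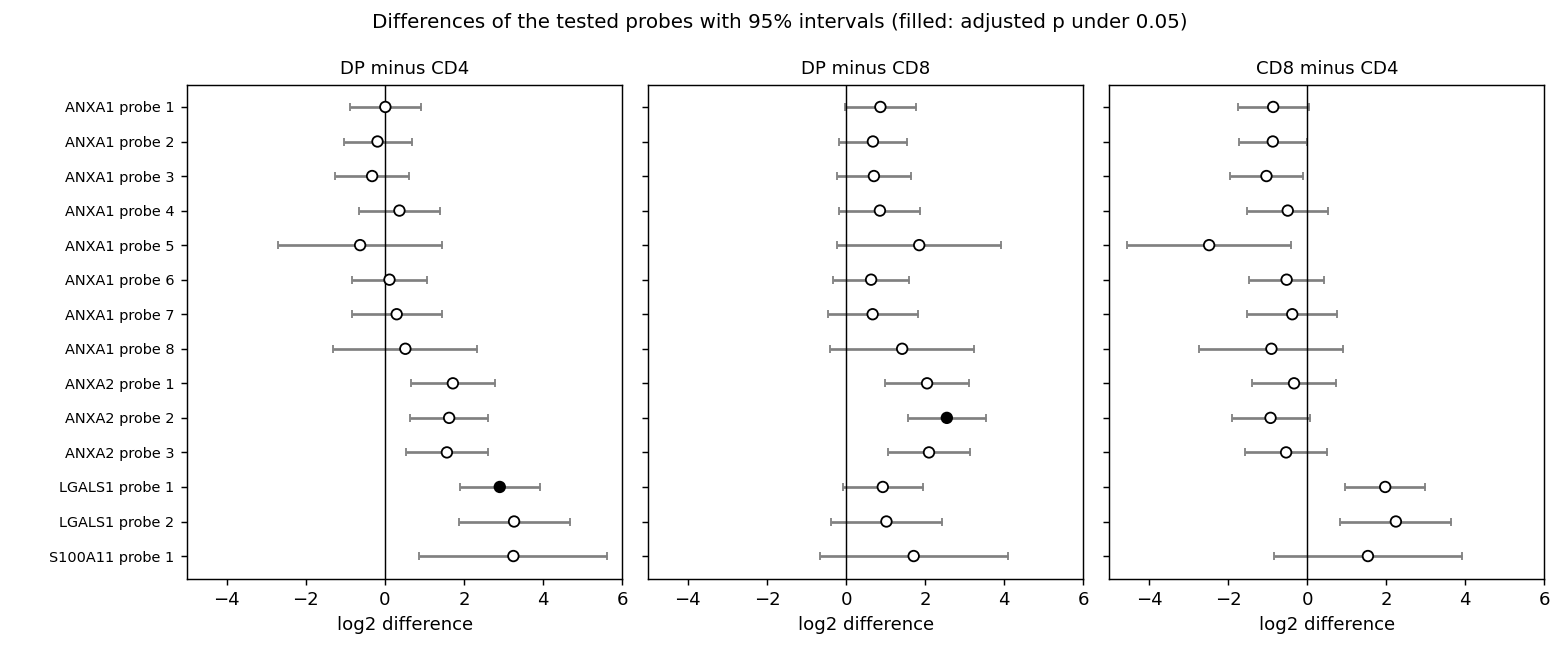
Log2 difference (horizontal axis) with its 95% interval from limma for each of the 14 tested probes, numbered by brightness within a gene, in DP minus CD4, DP minus CD8 and CD8 minus CD4. Filled points passed an adjusted p of 0.05: 1 LGALS1 probe in the first panel and 1 ANXA2 probe in the second. In the right panel both LGALS1 probes lie to the right of 0 and all 8 ANXA1 probes to the left.

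Whether the genes differed from each other in arrangement was read from their log2 difference on the same array, in which the scaling of the array cancels. LGALS1 minus ANXA2 read -1.24, -1.33 and -1.19 in DP arrays 1 to 3, 0.06, -0.31 and -0.15 in CD8 arrays 1 to 3 and -2.08, -3.48 and -1.75 in CD4 arrays 1 to 3. With these brightest probes the 3 fractions did not overlap, with the CD8 fraction highest and the CD4 fraction lowest. LGALS1 was not well above background on CD4 array 2, so the value of -3.48 rests in part on background signal. The mean differed by 1.19 for DP minus CD4, -1.12 for DP minus CD8 and 2.31 for CD8 minus CD4. Each gave an exact two-sided permutation p of 0.1, the smallest that 3 arrays against 3 can reach, and 0.3 after Benjamini-Hochberg adjustment over the 18 such comparisons of the 4 genes. With the second LGALS1 probe in place of the first, the CD4 fraction stayed lowest, but DP and the CD8 fraction overlapped. The overlap came through CD8 array 1, where that probe stood at -0.12 and ANXA2 at 1.40.

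LGALS1 minus ANXA1 read -1.39, -1.92 and -2.92 in DP arrays 1 to 3, -1.05, -2.64 and -2.72 in CD8 arrays 1 to 3 and -4.51, -5.93 and -4.47 in CD4 arrays 1 to 3. The CD4 fraction lay below both others, by 2.89 against DP and by 2.83 against the CD8 fraction (exact permutation p = 0.1 each), while DP and the CD8 fraction overlapped (difference 0.06). The value of -5.93 again uses the LGALS1 signal of CD4 array 2, which was not well above background. ANXA2 minus ANXA1 read -0.15, -0.59 and -1.73 in DP arrays 1 to 3, -1.11, -2.33 and -2.57 in CD8 arrays 1 to 3 and -2.43, -2.45 and -2.72 in CD4 arrays 1 to 3. Here DP lay above the CD4 fraction by 1.71 (exact permutation p = 0.1) and overlapped the CD8 fraction. S100A11 was not set apart from any of the other 3 genes. LGALS1 minus S100A11 differed by -0.34, -0.78 and 0.44 for DP minus CD4, DP minus CD8 and CD8 minus CD4, S100A11 minus ANXA2 by 1.53, -0.34 and 1.87, and S100A11 minus ANXA1 by 3.24, 0.84 and 2.40. All 9 overlapped between fractions (exact permutation p from 0.2 to 0.9). These within-array comparisons were chosen after the data were seen. With 3 arrays against 3 none could reach an exact permutation p under 0.05, with or without adjustment, so these p-values decide nothing.

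**Figure D4:**
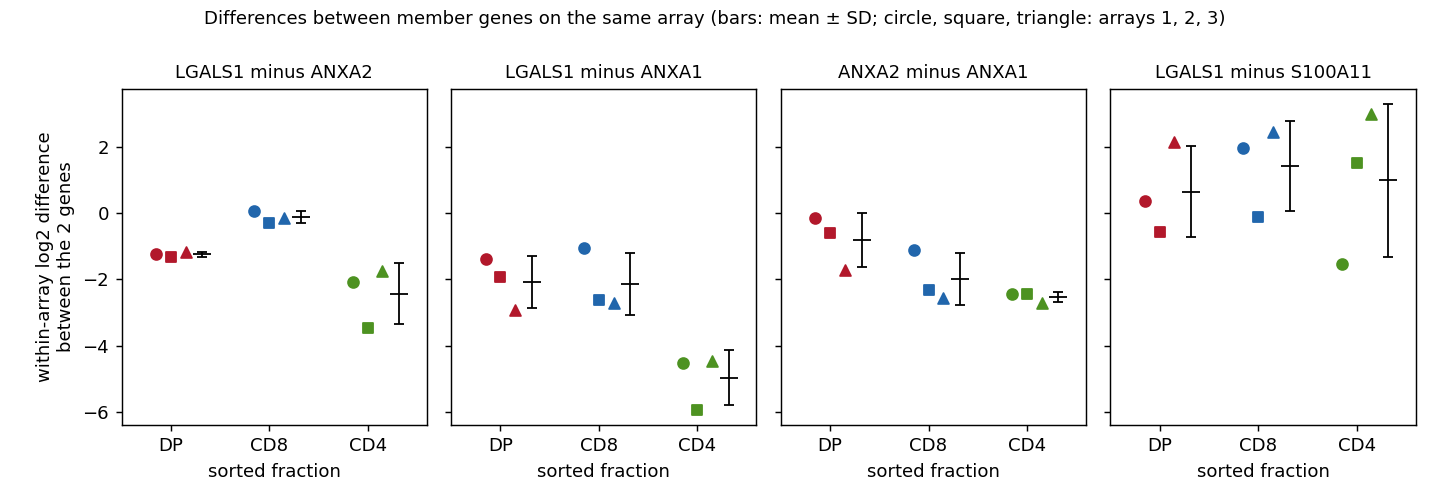
Difference in log2 level between 2 member genes on the same array (vertical axis) in the DP, CD8 and CD4 fractions, with symbols for single arrays and bars for mean ± SD of 3. With the brightest probe of each gene, LGALS1 minus ANXA2 separates all 3 fractions, from -1.33 to -1.19 in DP, from -0.31 to 0.06 in the CD8 fraction and from -3.48 to -1.75 in the CD4 fraction, and LGALS1 minus S100A11 separates none. With the second LGALS1 probe, not drawn, DP and the CD8 fraction overlap in LGALS1 minus ANXA2. LGALS1 was not well above background on CD4 array 2.

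Other genes of the 3 families were mostly dim. Of 8 other annexin genes listed, ANXA8 and ANXA9 had a named probe and neither was tested. Of 8 other galectin genes, 7 had a named probe, 5 stayed near background on all 9 arrays and LGALS9 alone was tested. LGALS9, a galectin that binds the checkpoint receptor TIM-3 in human T cells, averaged 0.53 in DP, -1.18 in the CD8 fraction and -0.23 in the CD4 fraction and was not called. Of 16 other S100 genes, 7 had a named probe and 4 were tested, and none was called in any comparison (limma). Among them S100A6, a calcium sensor that also binds annexins, averaged 5.87 ± 0.93 in DP, 5.07 ± 1.29 in the CD8 fraction and 3.45 ± 1.42 in the CD4 fraction (SD, n = 3). Its difference of 2.42 between DP and the CD4 fraction (SE 0.75) did not pass (adjusted p = 0.366). S100A14 differed by 1.68 (adjusted p = 1) and S100A12, a granulocyte gene, by -1.81 (adjusted p = 1). Of 12 binding partners and receptors, AGER, PLAT and PLG had a named probe and none was tested.

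Known genes of memory and naive T cells were read beside the members. Of 17 effector memory genes 7 were tested. All 7 had positive differences between DP and the CD4 fraction, from 0.03 to 4.30 (median 2.40), where 47.7% of all tested probes were positive. CCL5, a chemokine gene of memory and cytotoxic T cells, was higher in DP by 4.30 (SE 0.72, limma adjusted p = 0.0233) and was the 1 gene of the list called. ITGB1, the integrin beta 1 chain, differed by 2.73 and missed the threshold (limma adjusted p = 0.0767). Between DP and the CD8 fraction 5 of the 7 differences were positive (median 0.46), against 47.7% of all tested probes, and none was called.

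CCL5 differed by 4.30, -1.06 and 5.36 for DP minus CD4, DP minus CD8 and CD8 minus CD4, and was called in the last as well (adjusted p = 0.0061). ITGB1 differed by 2.73, 1.96 and 0.77 and FAS, a death receptor gene, by 2.40, 1.80 and 0.60, none of them called. Of 10 naive and central memory genes 5 were tested and none was called in any comparison, with a median of -1.45 for DP minus CD4, where 3 differences were negative and 2 positive (IL7R at 0.29 and KLF2 at 0.10). CCR7, a lymph node homing receptor, differed by -1.48 (limma adjusted p = 0.140) and LEF1, which encodes a partner of beta-catenin active in naive T cells, by -1.45 (adjusted p = 0.147).

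The 5 named genes whose course over the 9 arrays lay nearest to the mean course of ANXA1, ANXA2, LGALS1 and S100A11 were SOCS2, C14H10orf128, PTGR1, KPNA2 and UBD. Each gene was centred on its own mean, and the root mean square distance to the members' mean was 0.33, 0.46, 0.48, 0.49 and 0.49 on the log2 scale, against a median of 1.05 over the 1503 genes compared. SOCS2, a suppressor of cytokine signalling, averaged -0.40 in DP, -1.72 in the CD8 fraction and -2.15 in the CD4 fraction, and none of the 5 was called. Among the members themselves, ANXA1 and ANXA2 were nearest to each other at 0.89, ANXA2 and LGALS1 lay 1.04 apart, and ANXA1 and S100A11 were farthest apart at 2.17. No correlation is given, since the arrays fall into 3 groups.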

How the data were processed

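Processed signals of the 9 scanner files were used. They are deposited intensity values, made with Agilent Feature Extraction 11.0.1.1 per the file headers, in which background was subtracted and a spatial trend removed without scaling arrays to each other. The deposited table of processed values is on a log2 scale with 1 distribution in all 9 columns, made with a program that the sources used here do not name. Its CD8 columns 1, 2 and 3 followed scanner files 3, 1 and 2, and the scanner numbering was kept.

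Outlier-flagged spots (1 to 12 per array) and control spots were left out, spots of a probe averaged on the log2 scale and the 75th percentile of each array subtracted. Probes were named by unversioned accession (15.4% of probes), and a gene is shown by its brightest tested probe. A listed gene without a named probe was not analysed and may still be read by an unnamed probe. All 9 arrays entered 1 limma 3.58.1 fit in R 4.3.3 with a variance trend and no block. Tests were two-sided with Benjamini-Hochberg adjustment over 16024 probes. The fit was tested on simulated data. Alternatives changed the background correction, scaling, filter, block, variance trend, probe and arrays used. The normexp alternative used median spot signals with an offset of 50. Precision is limited by 3 arrays per fraction.

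The named genes were all members, list genes called or with the smallest p-values in DP minus CD4, and the nearest courses. Other genes (FAS, IL7R, KLF2 and the markers of other cells) were chosen after their values were seen. Members and lists were chosen with earlier results of these data known. Coordinates are left out because no build is stated. Figures used Python 3.11.15 and matplotlib 3.10.9, and exact tests scipy 1.17.1. Some genes of the lists are counted but not reported here by name.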

Additional observations from a re-analysis of the deposited data

How the results depend on the processing

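The signs of the differences of LGALS1 and S100A11, and of ANXA2 between DP and each other fraction, were kept under all alternatives that refit the arrays. ANXA1 between DP and the CD4 fraction was near 0 and turned negative with normexp background (-0.015), the percentile over detected probes (-0.012), quantile normalization (-0.0095), the processed table (-0.011) and 3 of its other probes (-0.19, -0.32 and -0.63), and ran from -0.22 to 0.43 over the arrays left out in turn. It was -0.96 within slide 2 and 0.75 within slide 3. ANXA2 between the CD8 and CD4 fractions ran from -0.61 to 0.13 over the arrays left out in turn, the last without CD4 array 2. It was -0.62 with a slide block, -0.93 and -0.53 for its other probes, -1.09 within slide 2 and -0.19 within slide 3. S100A11 between the same fractions was 2.85 within slide 2 and -0.12 within slide 3.

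Counts follow as DP minus CD4, DP minus CD8, CD8 minus CD4 and the F test. Member probes called were 1, 1, 0 and 1, and all probes called 47, 50, 70 and 98. Normexp used median spot signals and an offset of 50, which shrinks the folds of dim probes. It left 0 member probes in each and 1, 7, 6 and 7 of all probes, with LGALS1 at 1.19 in DP minus CD4. Testing only probes above background on all 9 arrays, which drops LGALS1, left 0 and 12, 5, 12 and 18. A slide block left 0 and 2, 2, 38 and 32. With no filter on dim probes there were 2, 1, 0 and 3 member probes and 109, 87, 97 and 201 in all. The percentile over detected probes gave 2 member probes in the F test and 22 of all probes for DP minus CD8, and quantile normalization likewise 2 in the F test. Fits of only the 2 fractions compared gave 29 and 22 of all probes for DP minus CD4 and DP minus CD8 and no member probe in the second. The processed table gave 24 and no member probe for DP minus CD8. Leaving out arrays in turn gave 0 to 2, 0 to 1, 0 and 0 to 2 member probes, and 2 to 54, 1 to 51, 31 to 83 and 50 to 119 of all probes. Which step of normexp lowered the counts was not tested. Apart from what is said of the filters, the cause of the other shifts was not tested either. A fit by scan time would equal that by slide and was not run apart.

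Arrays of 1 number share a number in the deposited file names, which the sources used here do not explain. Their deviations from the fraction means correlated at -0.067 to 0.65 (mean 0.26), against -0.57 to 0.42 (mean -0.13) for arrays of different numbers. The mean was thus higher for shared numbers, but the ranges overlapped and not every array correlated best with its own number. The numbers were not taken as pairs. If they do mark pairs, the main fit leaves that pairing out. The replicate block gave 1, 1, 0 and 2 member probes and 144, 83, 110 and 212 of all probes. It also called S100A6, ITGB1 and FAS in DP minus CD4 (limma adjusted p = 0.0155, 0.0218 and 0.0285). With the CD8 numbering of the processed table it gave 0, 0, 0 and 0 member probes and 30, 21, 50 and 70 of all probes.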
